A study of Mus musculus with 267 samples.

Results

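The regulatory regions around Myc were described in bone marrow-derived macrophages (BMDMs), which are macrophages grown from mouse bone marrow. A region belonged to the Myc locus where its centre lay within 200 kb of the start of Myc. This took 171 rows of 423610 in 9 tables of chromatin immunoprecipitation with sequencing (ChIP-seq) tags, and 841 peaks of 1958714 in 54 lists of transcription factor peaks. Rows of different tables with centres within 500 bp were counted as the same site, which gave 38 sites. The rule used position alone and no measured value.

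The macrophages came from female mice of 5 inbred strains, C57BL/6J, BALB/cJ, NOD/ShiLtJ, PWK/PhJ and SPRET/EiJ, called C57, BALB, NOD, PWK and SPRET here. They were left untreated (basal) or given interleukin-4 (IL-4) at 20 ng/mL for 24 h, and C57 cells also for 1 and 6 h. A further pair of lines carried floxed Egr2 alleles, either alone (Egr2 fl/fl) or with a Cre recombinase expressed from the lysozyme M gene of myeloid cells (LyzM-Cre Egr2 fl/fl), each sampled in basal conditions and at 24 h. All cells of that pair therefore carried the floxed alleles, and EGR2 itself was not measured in them here. Groups mostly held 2 libraries (2 to 4 for RNA polymerase II, Pol II, in the strains). The labels do not say whether replicates were separate animals, so that p-values measure only the spread between these libraries.

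Myc encodes a transcription factor that pairs with MAX and drives ribosome production, metabolism and cell cycle entry, and in macrophages it is a known IL-4-responsive gene. Its expression is set in large part by distal enhancers, many of them inside Pvt1, the long noncoding RNA gene that follows it on the same strand. H3K27ac marks active promoters and enhancers, H3K4me2 marks both whether or not they are active, H3K4me3 marks promoters and Pol II marks transcription. STAT6 is the factor that the IL-4 receptor switches on directly. EGR2 and PPARg are factors that IL-4 induces or engages later, and PU1 and CEBPb are lineage factors that hold macrophage enhancers open.

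In the mm10 assembly with the GENCODE vM21 annotation, Myc (ENSMUSG00000022346.15) lies on the plus strand of chromosome 15 from 61985391 to 61990374. The 340.1 kb Pvt1 (ENSMUSG00000097039.8, lincRNA) starts 52.6 kb downstream and runs past the end of the window. Distances here are those of region centres from the Myc start in the direction of transcription. Every row lay between 1.91 kb upstream and 196.5 kb downstream, and no row lay more than 2 kb upstream in any of the 9 tables. Of 23 rows in the C57 table, 13 had their centre in a Pvt1 intron, and the other strains had 11 of 20 (BALB), 15 of 25 (NOD), 15 of 23 (PWK) and 15 of 23 (SPRET). Of 38 sites, 14 had a row in all 5 strain tables and 9 in a single one. Rows of the strain tables are open chromatin, centred on peaks of an accessibility assay (ATAC-seq) that the methods call reproducible. A missing row means that no such peak was listed there, not that the signal was absent.

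**Figure D1:**
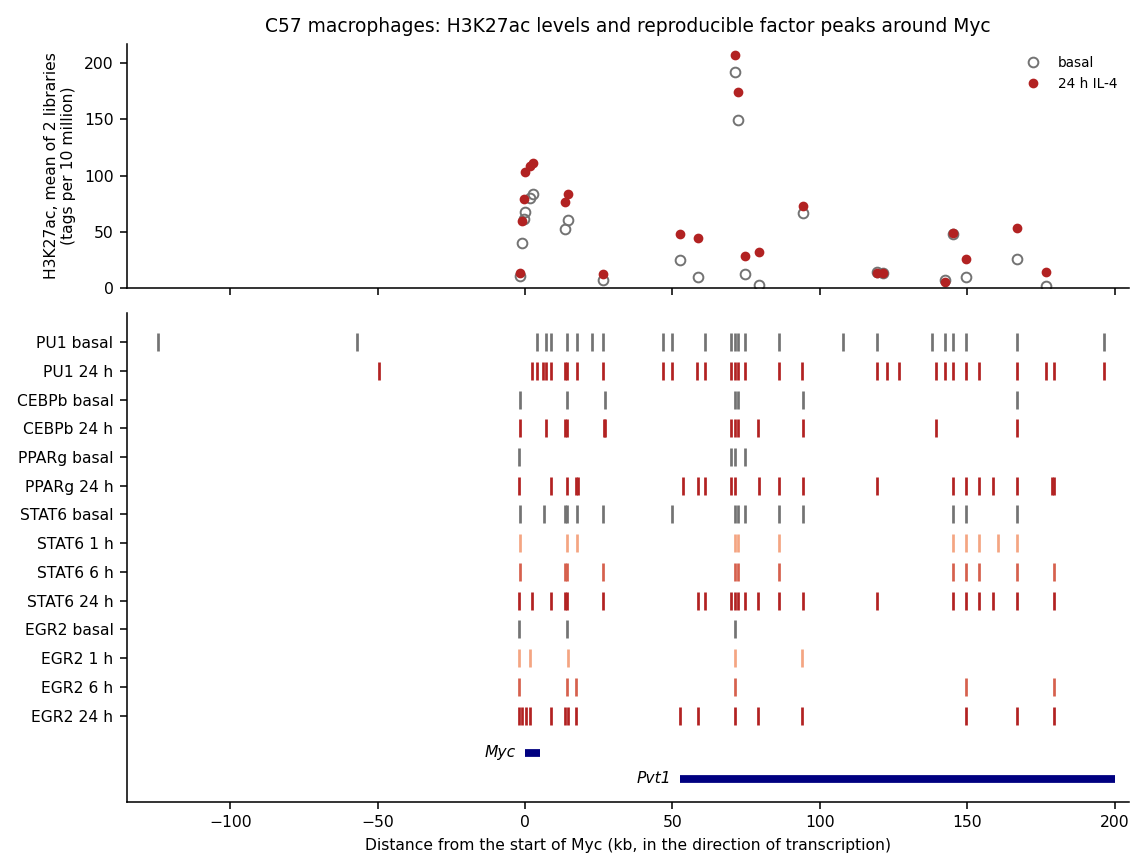
C57 macrophages: the upper panel plots the mean H3K27ac level of 2 libraries (tags per 10000000) of each of 23 rows against distance from the Myc start in kb, for basal and 24 h IL-4 cells. The lower panel marks each reproducible factor peak by factor and time, with the extent of Myc and Pvt1. Signal lies at and downstream of Myc, with the highest H3K27ac at +71.2 kb, and peaks farther than 2.5 kb upstream are all PU1.

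Some of the sites described by values, +58.6 kb among them, are left out below. Short sequences are shown for others, chosen because a STAT or EGR recognition sequence lies in them. They are mm10 reference (C57BL/6J) bases, 5′ to 3′ on the plus strand, from the RefSeq copy of that assembly, with the matched letters in capitals. The letters searched were TTC and GAA with 4 bases between them (STAT), GTGGGNG (EGR, which KLF and SP factors also read) and TTGCNNAA (C/EBP), on both strands in the 200 bp centred on each row.
+79.1 kb, STAT, chr15:62064470-62064499: ttgagcatgtTTCTTGTGAAtttgagaaat
+71.2 kb, STAT, chr15:62056640-62056669: gagtgaggatTTCACTGGAAgatcagaatg
+154.1 kb, STAT, chr15:62139527-62139556: tcacacagatTTCCTAGGAAtaccacctcc
-1.9 kb, EGR, chr15:61983476-61983505: caacccgggtgGTGGGGGgtgagggggcgg
+179.5 kb, STAT, chr15:62164788-62164817: aacaggatttTTCTGAAGAAaaatctttga
+179.5 kb, EGR, chr15:62164844-62164873: tttcttactttGTGGGAGggagagagagag

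Across 67730 C57 rows, 4.73% held the STAT letters, 21.7% the EGR letters and 11.9% the C/EBP letters, against 1, 2 and 5 of the 23 rows near Myc. The PU.1 letters GAGGAAGT were in 8.41% of all rows and 1 of 23, and the direct repeat of AGGNCA with 1 base between, read by PPARg, in 0.409% and 0 of 23. The sequences shown come from rows of several tables, and not from C57 rows alone. Of the 16 rows near Myc in which EGR2 tags were counted, 3 held the STAT letters, 3 the EGR letters and 3 the C/EBP letters. The share over all such rows was not counted. The +79.1 and +79.2 kb names refer to the same site, which the EGR2 table centres 0.1 kb nearer to Myc. A match is a description of letters and was not tested as a binding site.

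Tags were scaled to 10000000 per library, a normalized tag, over library totals of 4691644 to 29050468 tags. The share of tags inside rows differed between H3K27ac libraries, at 65.4% and 59.6% in C57 basal against 43.2% and 38.2% at 24 h, and at 57.1% and 28.7% in the 2 BALB libraries at 24 h. The C57 H3K27ac library at 1 h, replicate 2, had 20.5% against 44.0% in replicate 1. Over all rows the median log2 change of H3K27ac at 24 h was below 0 in each strain (-0.28 in C57, -0.30 in BALB, -0.20 in NOD, -0.18 in PWK and -0.09 in SPRET), and changes near Myc are read beside it. The promoters of 8 macrophage marker genes (Csf1r, Adgre1, Cd68, Spi1, Itgam, Mertk, Cd14 and Fcgr1) all had rows, except 1 in SPRET. Their summed H3K27ac was 1421 to 4580 normalized tags per library. The sums were lower at 24 h than in basal cells in every strain, without overlap. They were 4573 and 4580 against 1898 and 1901 in C57, and 3624 and 3961 against 1457 and 2754 in BALB. NOD had 3265 and 4231 against 2098 and 2500, and PWK 2529 and 2874 against 1421 and 2315. SPRET had 2424 and 2521 against 1503 and 2178. The cause of this fall was not tested. Of 10 marker genes of T, B, neutrophil, fibroblast and epithelial cells, 0 to 2 had a row, with sums of at most 11.5 in any H3K27ac library.

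At the Myc promoter, basal and 24 h libraries of H3K27ac overlapped in every strain, and no change passed the test. Pol II was higher in every 24 h library than in every basal library in BALB and SPRET alone. In C57, H3K27ac at the promoter row (+0.1 kb) was 41.4 and 94.1 normalized tags in basal cells and 86.6 and 120.1 at 24 h. The groups overlapped, and the log2 change was 0.70 (SE 0.50, limma adjusted p = 0.434). BALB had 106 and 81.0 in basal cells and 227 and 92.9 at 24 h, a log2 change of 0.64 (SE 0.73, adjusted p = 0.832). NOD had 315 and 122 against 312 and 176, PWK 304 and 145 against 345 and 195, and SPRET 229 and 268 against 430.2 and 235. These 3 strains gave log2 changes of 0.26, 0.30 and 0.36 (limma adjusted p = 0.868, 0.908 and 0.787). Basal and IL-4 libraries overlapped in all 5 strains. Compared by replicate number, the 24 h library was the higher in both pairs in C57, BALB and PWK. It was higher in replicate 2 alone in NOD and in replicate 1 alone in SPRET. The labels do not say whether the numbers pair these libraries.

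Pol II at the same rows was measured in more libraries. In BALB it was 67.7, 89.6 and 30.6 in basal cells and 215 and 265 at 24 h, a log2 change of 2.04 (SE 0.66, limma adjusted p = 0.139). SPRET had 301, 297 and 176 in basal cells and 475, 447 and 359 at 24 h, a log2 change of 0.76 (SE 0.25, adjusted p = 0.206). These were the strains without overlap, and neither change passed the threshold. C57 had 54.3, 42.5, 126 and 85.1 in basal cells and 78.7, 106 and 214 at 24 h (log2 change 0.77, SE 0.42, adjusted p = 0.665). NOD had 300.4 and 108 against 345 and 231 (log2 change 0.64, SE 0.48, adjusted p = 0.851). PWK had 329, 197 and 104 against 291, 328 and 259 (log2 change 0.62, SE 0.34, adjusted p = 0.529).

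By mean basal H3K27ac the promoter rows were ordered C57 (67.8 ± 37.3 SD), BALB (93.4 ± 17.5), NOD (219 ± 136), PWK (224 ± 112) and SPRET (249 ± 27.5), with n = 2 in each. Neighbours in this order overlapped in their libraries, except NOD and BALB, where the lower NOD library (122) lay above both BALB libraries. The strain tables were made separately and their differences were not tested. H3K4me3 in basal cells averaged 395 ± 124 in C57, 439 ± 8.70 in BALB, 470.4 ± 7.09 in NOD, 470.4 ± 7.04 in PWK and 536 ± 17.3 in SPRET (SD, n = 2). At 24 h it averaged 405 ± 84.7, 496 ± 12.6, 462 ± 75.0, 430.0 ± 69.3 and 618 ± 96.9, so that means were higher than basal in C57, BALB and SPRET and lower in NOD and PWK.

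H3K4me2 at the promoter fell in C57, from 133 and 158 in basal cells to 79.7 and 27.1 at 24 h (log2 change -1.62, SE 0.42, limma adjusted p = 0.0481). The median change of H3K4me2 over all C57 rows was -0.69, and with median-ratio scaling, which sets that median near 0, the promoter changed by -0.93 (adjusted p = 0.165). edgeR and DESeq2 did not call it (adjusted p = 0.211 and 0.695). The call was kept without the 24 h replicate 1 and lost without each of the other 3 libraries (log2 change -1.74 to -0.85). BALB (97.2 and 168 to 63.5 and 33.7), NOD (44.5 and 104 to 31.2 and 41.9) and SPRET (72.8 and 70.5 to 36.9 and 29.2) were also lower in every 24 h library, and PWK was not (53.8 and 129 to 65.7 and 54.0).

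Over the whole locus, H3K27ac and Pol II had higher means at 24 h at most members in each strain. H3K27ac means were higher at 20 of 23 members in C57, 17 of 20 in BALB, 22 of 25 in NOD, 21 of 23 in PWK and 22 of 23 in SPRET. The median log2 change of the members was 0.51, 0.35, 0.33, 0.32 and 0.44, beside all-row medians below 0. Pol II means were higher at 21 of 23, 19 of 20, 24 of 25, 23 of 23 and 22 of 23 members in the same order of strains. Their median log2 changes were 0.73, 1.29, 0.74, 0.80 and 0.85, where all rows had -0.03, 0.32, -0.02, -0.03 and -0.10. Neighbouring rows share libraries and, in places, tags, so that the members are not independent replicates of the response.

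**Figure D2:**
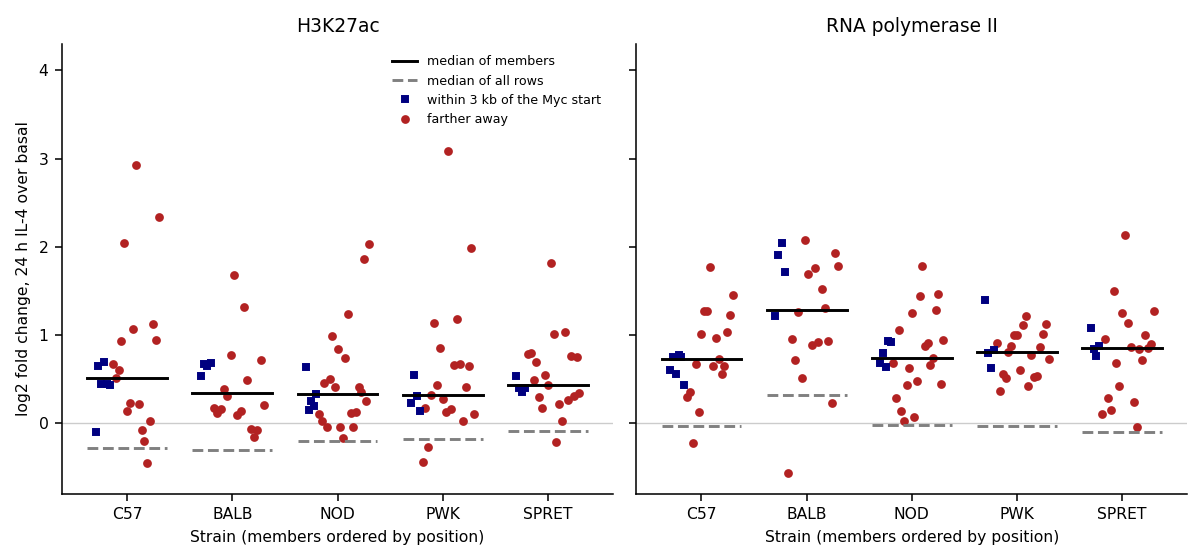
Log2 fold change at 24 h of IL-4 over basal (limma, log2 of normalized tags plus 1) for every row near Myc by strain, for H3K27ac and Pol II. Solid lines are medians of the members and dashed lines medians of all rows of the table. Member medians lie between 0.32 and 0.51 for H3K27ac and between 0.73 and 1.29 for Pol II, above the dashed line in each strain.

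Few of these differences passed a test of single rows. For H3K27ac, limma called 1 of 23 members in SPRET, where 1.19% of all rows were called, and 0 in the other strains, where 0% (C57), 2.26% (BALB), 0.0566% (NOD) and 0.535% (PWK) of all rows were called. At an unadjusted p under 0.05 there were 3 members in C57, 2 in BALB, 2 in NOD, 3 in PWK and 4 in SPRET, all higher, where 22%, 11.9%, 12.4%, 10.6% and 12.2% of all rows reached it in either direction. The count test edgeR called 0 in C57, BALB, NOD and PWK, and DESeq2 called 2 in C57, 1 in NOD and 0 in BALB and PWK. Of all rows in C57, BALB, NOD and PWK, edgeR called 0.4%, 2.49%, 0.115% and 0.213%, and DESeq2 4.21%, 3.98%, 2.32% and 1.46%. For Pol II, limma called 2 of 23 members in SPRET (1.05% of all rows) and 0 in C57 (0.319%), BALB (0.707%), NOD (0%) and PWK (1.72%). Unadjusted p under 0.05 was reached by 5 members in C57, 10 in BALB, 7 in NOD, 8 in PWK and 16 in SPRET, all higher, where 8.82%, 7.62%, 7.65%, 12% and 13% of all rows reached it, and of the zero counts DESeq2 raised BALB to 1 while edgeR raised none. Replicate numbers paired the Pol II libraries of C57, PWK and SPRET, and a fit with the replicate block called 0, 4 and 8 members in those strains and 0.809%, 9.78% and 8.39% of all rows. For H3K27ac the same-number correlations were also positive in every strain (0.507 to 0.729). The block called more members for that mark in every strain, with the counts given in the last section. Of all rows it then called 38% (C57), 7.67% (BALB), 19.9% (NOD), 9.39% (PWK) and 7.03% (SPRET).

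For H3K4me2, limma called 2 members in C57 (0.236% of all rows), 1 higher and 1 lower, and 0 in BALB (0.0111%), NOD (0.189%), PWK (0.314%) and SPRET (0%). Unadjusted p under 0.05 was reached by 1, 3, 2 and 7 members in those 4 strains and by 1.87%, 8.37%, 4.79% and 32.4% of all rows. edgeR called 1 in BALB (0.483% of all rows) and 0 in the other 3, and DESeq2 called 0 in all 4. For H3K4me3, limma, edgeR and DESeq2 called 0 members in every strain, where limma called 0% (C57), 0% (BALB), 0.0203% (NOD), 0.0349% (PWK) and 0% (SPRET) of all rows. Unadjusted p under 0.05 was reached by 3, 1, 0, 1 and 2 members, all higher, and by 19.5%, 6.31%, 5.41%, 4.75% and 6.17% of all rows.

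The fold rule asked for means (plus 1) at least 2.5-fold apart with at least 16 normalized tags in either group, or 8 for Pol II, and carries no test. For H3K27ac it was met by 2 members in C57 (3.46% of all rows were higher by this rule), 1 in BALB (2.84%), 2 in NOD (3.24%), 2 in PWK (3.1%) and 1 in SPRET (2.64%). All were higher, and none was lower, where 7.55%, 5.13%, 5.14%, 3.01% and 0.939% of all rows were lower. For Pol II it was met by 1 member in C57 (1.57%), 9 in BALB (5.91%), 3 in NOD (2.35%), 0 in PWK (2.66%) and 2 in SPRET (1.54%). None was lower, where 1.66%, 0.929%, 1.25%, 0.932% and 0.805% of all rows were. The filter on low values was passed by 17 of 23 (C57), 18 of 20, 24 of 25, 21 of 23 and 21 of 23 members for H3K27ac, and by 16, 17, 24, 21 and 21 for Pol II.

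The 9 members of BALB that met the rule for Pol II included 3 around the gene itself (-0.9, +0.1 and +1.8 kb) and 6 in the Pvt1 introns (+58.5, +69.8, +72.3, +94.1, +149.7 and +167.0 kb). Pol II at +72.3 kb averaged 11.6 normalized tags in basal cells and 39.9 at 24 h (limma adjusted p = 0.28), and at +149.7 kb 3.31 and 15.5 (adjusted p = 0.259). In that comparison the basal replicate 3 had 17.6% of its tags in rows, and the 24 h replicate 1 held 4691644 tags, the fewest of all libraries. Fits without each single library were run, but whether these libraries account for the result was not tested.

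The site at +79.2 kb, in a Pvt1 intron, showed the largest H3K27ac folds of the locus by the naming rule, 9.84-fold in C57 and 8.53-fold in PWK by means plus 1. In SPRET it had 29.1 and 63.9 normalized tags in basal cells and 158.7 and 149.7 at 24 h, without overlap (log2 change 1.81, SE 0.40, limma adjusted p = 0.0336). In PWK it had 1.72 and 1.57 against 20.2 and 22.9 (log2 change 3.09, SE 0.67, adjusted p = 0.0509). C57 had 4.07 and 0.71 against 7.64 and 57.1 (log2 change 2.93, SE 1.00, adjusted p = 0.172). In SPRET every 24 h library lay above every basal library. The same held in C57 and PWK, where the naming rule asked for it. The 24 h libraries of C57 differed most from each other. The SPRET basal libraries were above the basal libraries of C57 and PWK and, in 1 of 2 cases, above both C57 24 h libraries. BALB and NOD had no row at this site.

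Pol II at +79.2 kb rose in SPRET, from 5.81, 11.4 and 7.19 to 39.7, 39.6 and 34.2 (log2 change 2.13, SE 0.33, limma adjusted p = 0.0131). It was 3.74, 0.80, 1.07 and 0 in basal cells of C57 and 3.33, 3.19 and 17.96 at 24 h, and 8.46, 5.6 and 0.76 against 7.91, 15.1 and 6.84 in PWK, with overlap in both. H3K4me2 there rose in C57 from 2.45 and 4.93 to 20.9 and 19.8 (log2 change 2.24, SE 0.55, limma adjusted p = 0.0296), against the lower median of that mark. It was 14.5 and 11.3 against 24.5 and 24.5 in PWK, and 19.4 and 41.1 against 23.1 and 26.3 in SPRET. Basal H3K4me2 of PWK and SPRET lay above that of both C57 basal libraries.

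The SPRET call for H3K27ac at +79.2 kb was kept without the basal replicate 2 and lost without each of the other 3 libraries (log2 change 1.26 to 1.85). With median-ratio scaling its adjusted p was 0.058. The SPRET Pol II call there was kept without the 24 h replicate 3 and without the basal replicate 2 and lost without each of the other 4 (1.94 to 2.10). The C57 H3K4me2 call was kept without the 24 h replicate 1 and lost without each of the other 3 (1.85 to 2.63). Whether the strains differ in their response was not tested.

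At +58.5 kb, near the start of Pvt1, every strain had a row. H3K27ac was 8.14 and 11.4 in C57 basal cells and 33.1 and 55.8 at 24 h, a fold of 4.22 by means plus 1 (log2 change 2.05, SE 0.52, limma adjusted p = 0.127). BALB had 28.7 and 23.8 against 55.7 and 36.7, NOD 44.9 and 30.2 against 81.0 and 68.1, and PWK 24.0 and 39.1 against 58.6 and 80.2. In these 4 strains the groups did not overlap, and in SPRET they did (41.9 and 59.9 against 47.6 and 80.8). For C57 the naming rule asked for this lack of overlap. The log2 changes of BALB, NOD, PWK and SPRET were 0.77, 0.99, 1.13 and 0.30 (limma adjusted p = 0.699, 0.465, 0.424 and 0.843). Pol II at the site was 12.5, 2.41, 3.22 and 8.10 in basal cells of C57 and 6.00, 5.92 and 6.41 at 24 h (log2 change 0.13, SE 0.55, adjusted p = 0.993). In BALB it was 1.92, 2.97 and 4.38 against 14.9 and 16.7 (log2 change 2.08, SE 0.70, adjusted p = 0.185), and in SPRET 5.81, 17.5 and 8.21 against 36.3, 22.6 and 28.6 (log2 change 1.4975, SE 0.41, adjusted p = 0.121).

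The highest H3K27ac away from the gene lay at +71.2 and +72.3 kb in every C57 library. At +71.2 kb it was 121 and 262 in C57 basal cells and 141 and 273 at 24 h, and the replicate 2 library was above the replicate 1 library in both conditions. BALB had 201 and 208 against 249 and 191, NOD 449.7 and 385 against 438 and 374, PWK 273 and 271 against 369 and 292, and SPRET 286 and 354 against 518 and 418. IL-4 and basal libraries overlapped in C57, BALB and NOD. At +72.3 kb H3K27ac was 98.4 and 200.4 against 116 and 232 in C57. Pol II at +72.4 kb rose in SPRET, from 34.8, 25.9 and 26.2 to 72.7, 79.9 and 58.2 (log2 change 1.25, SE 0.25, limma adjusted p = 0.0422), a call that was lost without any single one of the 6 libraries (1.15 to 1.39). The third member by C57 level, at +2.6 kb in the Myc coding exon, had H3K27ac of 59.7 and 107 in basal cells and 84.0 and 138 at 24 h, with H3K4me3 of 300.6 and 421 against 319.6 and 450.2.

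**Figure D3:**
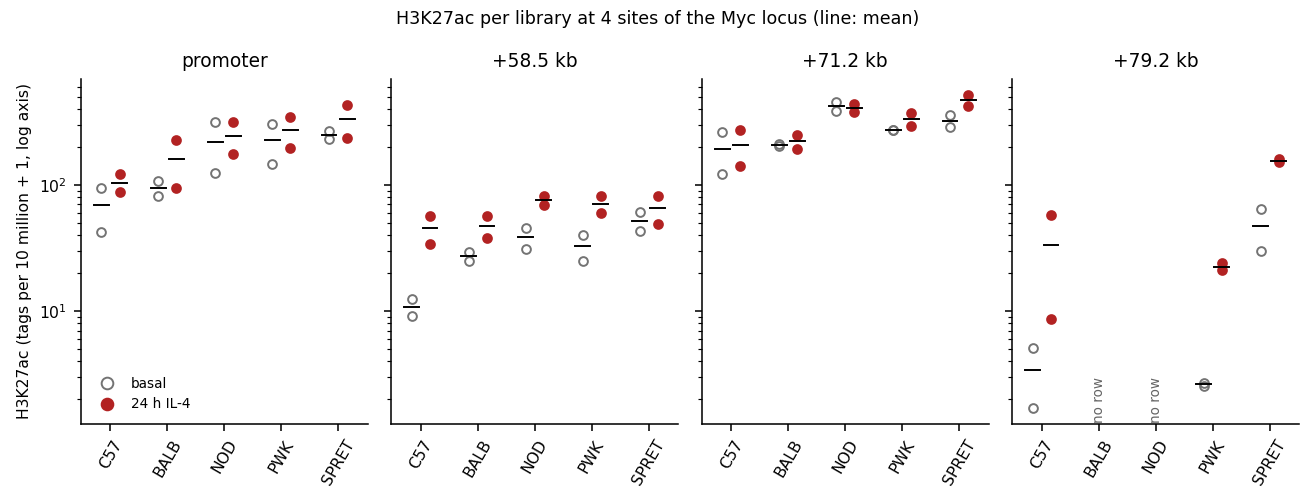
H3K27ac per library (normalized tags plus 1, log axis) in basal and 24 h IL-4 cells of the 5 strains at the Myc promoter and at +58.5, +71.2 and +79.2 kb, with group means as lines. Libraries overlap at the promoter in every strain. At +79.2 kb the 24 h libraries lie above the basal ones in C57, PWK and SPRET, and the other 2 strains have no row. The naming rule chose +58.5 kb in C57 and +79.2 kb in C57 and PWK among rows without overlap.

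A further pair of downstream sites differed in which strains had a row. At +154.1 kb NOD had H3K27ac of 39.9 and 15.1 in basal cells and 102 and 83.3 at 24 h (log2 change 1.86, SE 0.60, limma adjusted p = 0.269), and Pol II of 9.08 and 4.79 against 26.01 and 15.5. SPRET had 11.1 and 9.88 against 14.99 and 22.6 (log2 change 0.76, SE 0.49, adjusted p = 0.596). At +158.7 kb, listed in PWK alone, H3K27ac was 5.15 and 7.05 against 22.9 and 31.5 (log2 change 1.99, SE 0.61, adjusted p = 0.205). None of these passed the test. The naming rule chose +154.1 kb in NOD and +158.7 kb in PWK among rows without overlap of libraries.

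The C57 time course gave H3K27ac and Pol II after 1, 6 and 24 h of IL-4, and differences between sites in their course were not tested. The basal libraries are shared by all times, and the basal and 24 h libraries are those of the C57 table above. H3K27ac at +154.1 kb rose by 1 h, from 6.78 and 13.6 normalized tags to 81.2 and 31.3 (log2 change 2.28, SE 0.63, limma adjusted p = 0.0329), and stood at 62.4 and 79.7 at 6 h (2.75, SE 0.63, adjusted p = 0.0171). At 24 h it was 27.2 and 64.3 (2.01, SE 0.63, adjusted p = 0.113). Every IL-4 library at this site lay above both basal libraries. Pol II there was 8.74, 2.41, 2.14 and 5.06 in basal cells, 15.2 in the only 1 h library, 18.6 and 9.75 at 6 h and 6.00, 10.0 and 16.7 at 24 h.

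At +17.6 kb, between Myc and Pvt1, H3K27ac fell by 1 h. It was 43.4 and 97.7 in basal cells, 3.87 and 24.1 at 1 h (log2 change -2.58, SE 0.72, limma adjusted p = 0.0346), 18.5 and 17.6 at 6 h (-1.80, adjusted p = 0.161) and 60.3 and 166 at 24 h. The libraries at 1 and 6 h lay below both basal ones, and those at 24 h did not. The neighbours at +13.6 kb (23.1 and 79.9 to 20.9 and 8.61) and +14.4 kb (39.4 and 82.0 to 22.4 and 15.8) were also lower at 1 h and met the fold rule, with limma adjusted p of 0.11 and 0.0858. In this comparison the median over all rows was -0.63, and the 1 h replicate 2 had the low share of tags in rows given above. With median-ratio scaling none of the 3 met the fold rule, and the change at +17.6 kb was -1.80 (limma adjusted p = 0.229). edgeR and DESeq2 did not call it either (adjusted p = 0.348 and 0.36).

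The sites at +58.5 and +79.2 kb had their highest H3K27ac means at 24 h, and no change there passed the test in the time course. H3K27ac at +58.5 kb was 20.9 and 10.7 at 1 h, 24.6 and 45.6 at 6 h (log2 change 1.70, limma adjusted p = 0.106) and 33.1 and 55.8 at 24 h (2.05, adjusted p = 0.0914), from 8.14 and 11.4. At +79.2 kb it was 11.6 and 5.85 at 1 h, 16.9 and 15.2 at 6 h (2.53, adjusted p = 0.0672) and 7.64 and 57.1 at 24 h (2.93, adjusted p = 0.0681), from 4.07 and 0.71. At +176.7 kb it rose by 6 h, from 1.36 and 2.85 to 12.3 and 15.8 (log2 change 2.31, SE 0.60, limma adjusted p = 0.0331). The promoter had its highest H3K27ac mean at 6 h, with 190.2 and 128 against 41.4 and 92.0 (log2 change 1.32, SE 0.67, adjusted p = 0.279), and was wide apart at 1 h (191 and 42.3). Pol II at the promoter was 184 in the only 1 h library and 150.0 and 132 at 6 h, against 43.3 to 126 in basal cells (limma adjusted p = 0.45 and 0.49). The fit at 1 h takes its spread from the other times and assumes that the lone library varies like them.

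**Figure D4:**
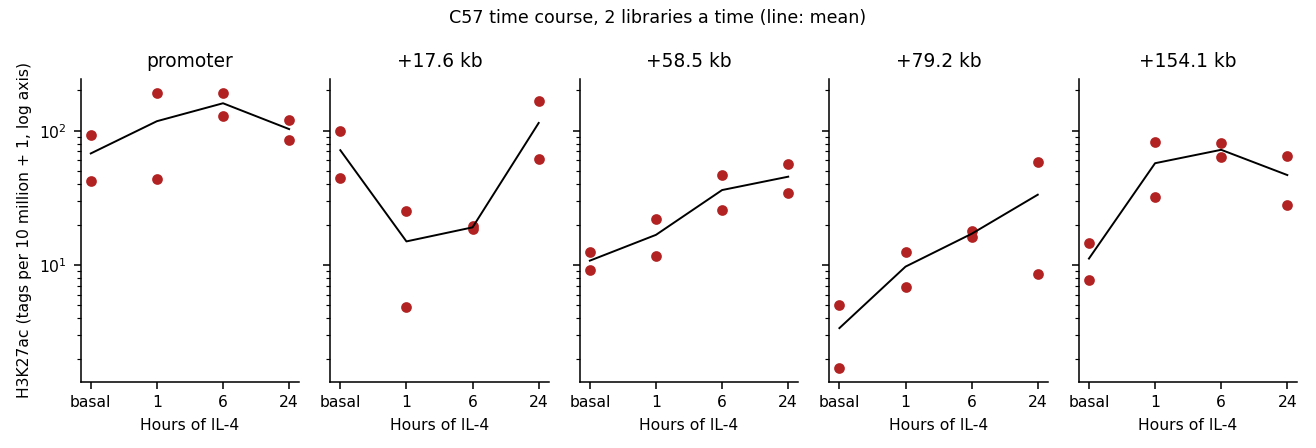
H3K27ac per library (normalized tags plus 1, log axis) in C57 macrophages in basal cells and after 1, 6 and 24 h of IL-4, with 2 libraries a time and a line through the means, at the promoter and at 4 distal sites. The hours are evenly spaced categories and not a time scale. The site at +17.6 kb is low at 1 and 6 h, +154.1 kb is high from 1 h, and +58.5 and +79.2 kb have their highest means at 24 h.

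Of 31 members, limma called 2 for H3K27ac at 1 h (1 higher, 1 lower), where 9.72% of all rows were called, 2 at 6 h (5.13%, both higher) and 0 at 24 h (1.45%). At 24 h, 7 members had an unadjusted p under 0.05, all higher, as had 17.1% of all rows in either direction. edgeR called 3 (1.94% of all rows) and DESeq2 4 (6.11%). By the fold rule 1 member was higher at 1 h (2.31% of all rows) and 3 lower (20.6%), and at 6 h 3 were higher (5.59%) and 1 lower (8.63%). The filter on low values was passed by 17 members at 1 h and 20 at 6 h. For Pol II limma called 0 members at each time, where 0.0911%, 0.566% and 0.677% of all rows were called at 1, 6 and 24 h. Unadjusted p under 0.05 was reached by 4, 5 and 10 members, of which 1 at 1 h was lower, and by 10.0%, 10.2% and 9.55% of all rows, and edgeR and DESeq2 called 0. The 1 h values rest on 1 library and on the assumption given above. The +154.1 kb call at 1 h was kept without the 1 h replicate 2 and lost without each of the other 3 libraries (log2 change 1.60 to 2.73). At 6 h it was kept without the basal replicate 2 and lost without each of the others (2.30 to 2.92). The +17.6 kb call was kept without the basal replicate 1 or the 1 h replicate 2, and lost without the basal replicate 2 (-2.01) or the 1 h replicate 1 (-1.40). The +176.7 kb call was lost without any single library (1.96 to 2.67).

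Factor peaks near Myc became more numerous in C57 lists at 24 h for each factor, as did the lists as a whole. The peaks near Myc numbered 15 in basal cells and 22 at 24 h for STAT6 (11 at 1 h and 12 at 6 h), 3 and 16 for EGR2 (5 and 6), 4 and 21 for PPARg, 7 and 13 for CEBPb, and 25 and 32 for PU1. The STAT6 lists held 30589 and 39537 peaks in all (24376 at 1 h and 23884 at 6 h), so that the share near Myc was 0.0490% and 0.0556%. It was 0.0388% and 0.0347% for CEBPb, of 18043 and 37499 peaks, and 0.0291% and 0.0354% for PU1, of 85916 and 90308. The EGR2 lists held 8437 and 29407 peaks in all, so that the share near Myc was 0.0356% (95% exact binomial interval 0.00733 to 0.104) and 0.0544% (0.0311 to 0.0883). For PPARg the lists held 7627 and 39088 peaks and the shares were 0.0525% (0.0143 to 0.134) and 0.0537% (0.0333 to 0.0821). These intervals overlap and cover counting error only, and each list stands for a group with no replicate lists. Of the 16 EGR2 peaks at 24 h, 3 (18.8%) shared a basal peak, and of the 21 PPARg peaks 3 (14.3%). With each pair of lists shortened to the length of the shorter, by rank, these shares were 100% (2 of 2 peaks) and 50% (3 of 6). The basal lists were much the shorter, which limits the full-list shares at any locus. Shares over the whole lists were not counted, so that these describe no trait of the locus. In the other strains the EGR2 peaks of basal and 24 h lists numbered 16 and 16 (BALB), 14 and 9 (NOD), 2 and 4 (PWK) and 5 and 20 (SPRET), of lists of 28842 and 37104, 25341 and 16604, 6201 and 14919, and 12301 and 39458 peaks. Those of PPARg numbered 4 and 18, 7 and 21, 8 and 15, and 13 and 14, of 6524 and 23578, 12529 and 40426, 18402 and 46415, and 19684 and 18487.

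Merged over factors and times, the C57 peaks formed 51 sites, of which 20 had no basal peak and 12 held 4 or 5 factors at 24 h, against 3 in basal cells. The 24 h lists of C57 were the longer for every factor. The share of such sites over the genome was not counted, so that these counts describe the locus alone. The site at +71.2 kb held all 5 factors and had a peak in all 14 C57 lists and in all 54 lists of the 5 strains. At +14.4 kb the 5 factors had peaks in 13 C57 lists, with PPARg at 24 h alone, and at +167.0 kb in 10, with EGR2 and PPARg at 24 h alone. At -1.9 kb STAT6, EGR2, PPARg and CEBPb had peaks in both conditions and PU1 had none in C57, although it had a basal peak there in BALB, NOD, PWK and SPRET. At +149.7 kb STAT6 and PU1 had peaks in both conditions, EGR2 from 6 h and PPARg at 24 h. Over all strains there were 77 sites, 31 of them with a peak in all 5 strains and 18 in a single strain, and the 19 peaks more than 2.5 kb upstream were all PU1.

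At +79.2 kb no factor had a basal peak in C57, and STAT6, EGR2, PPARg and CEBPb had peaks at 24 h while PU1 had none. CEBPb had a 24 h peak at this site in all 5 strains, BALB and NOD included, and a basal peak in PWK and SPRET. In SPRET, STAT6 and PPARg also had peaks there in both conditions, and PU1 in basal cells. At +58.6 kb STAT6, EGR2, PPARg and PU1 had peaks at 24 h alone in C57. EGR2 had a basal peak there in BALB and NOD and a 24 h peak in BALB and SPRET. At +154.1 kb STAT6 had a peak at 1, 6 and 24 h and none in basal cells of C57, with PPARg and PU1 at 24 h. STAT6 also had a 24 h peak there in BALB, NOD, PWK and SPRET, with no basal peak in any strain, and EGR2 and CEBPb had none in any list.

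EGR2 tags in C57 were measured in 16 rows near Myc. At +71.2 kb EGR2 was 138 and 141 in basal cells, 59.6 and 133 at 1 h, 110.0 and 178.8 at 6 h and 165 and 138 at 24 h. This member had the highest EGR2 level at the locus, without a change beyond the spread of libraries (log2 change 0.12 at 24 h, SE 0.64). At -1.9 kb EGR2 was 52.9 and 67.2 in basal cells and 133 and 105 at 24 h (log2 change 0.97, SE 0.70, limma adjusted p = 0.838), with 22.6 and 63.7 at 1 h and 50.6 and 104 at 6 h. At +17.4 kb it was 14.1 and 17.5 against 78.6 and 39.2 at 6 h and 48.9 and 28.8 at 24 h. At +149.7 kb it was 9.37 and 30.9 against 48.5 and 35.5 at 24 h, and at +14.4 kb 40.3 and 53.7 against 58.8 and 30.7. Means were higher at 14 of 16 members at 24 h, with a median log2 change of 0.94 beside 0.66 over all rows. All 16 members lay at a 24 h EGR2 peak of C57, and 3 at a basal peak. Higher means at 24 h were thus favoured by how the members came to be listed, and are no independent support for a response. limma, edgeR and DESeq2 called 0 members at 1, 6 and 24 h, and limma called 0% of all rows at each time. Unadjusted p under 0.05 was reached by 0, 2 and 1 members and by 3.54%, 3.81% and 3.38% of all rows.

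Rows in the tables of the Egr2 genotypes are EGR2 peaks gained with IL-4 in C57, per the labels, so that they were chosen on EGR2 in other cells. They held 5 members, at +17.4, +58.6, +79.1, +149.7 and +179.5 kb, of 4677 rows. In Egr2 fl/fl cells H3K27ac rose with IL-4 at 4 of the 5, all but +17.4 kb. It was lower in LyzM-Cre than in Egr2 fl/fl cells at 24 h, past the test, at 3 of the 5, +17.4, +58.6 and +79.1 kb. Over all rows the calls were 1196 higher and 119 lower with IL-4 in Egr2 fl/fl cells and 66 higher and 1087 lower by genotype at 24 h, with medians of 0.50 and -0.50. With median-ratio scaling these splits became 639 and 502, and 536 and 496. The member calls for the genotype were then 0, and those for IL-4 in Egr2 fl/fl cells 2. That scaling was computed on these selected rows alone, and it takes out a change that most of them share. edgeR and DESeq2 also rescaled libraries on these rows. A call lost in these settings thus does not tell a scaling difference from a shared change.

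At +79.1 kb H3K27ac was 2.56 and 2.04 normalized tags in basal Egr2 fl/fl cells and 27.1 and 30.8 at 24 h. In LyzM-Cre Egr2 fl/fl cells it was 3.01 and 1.68 in basal conditions and 4.16 and 11.03 at 24 h. The Egr2 fl/fl libraries at 24 h stood above all 6 others. IL-4 raised the mark in Egr2 fl/fl cells by a log2 change of 3.19 (SE 0.54, limma adjusted p = 0.000421), a call kept in each of 10 alternatives with changes of 2.22 to 3.30. In LyzM-Cre Egr2 fl/fl cells the change was 1.26 (adjusted p = 0.131). The genotypes differed at 24 h by -1.93 (SE 0.54, adjusted p = 0.0176), which was kept without the LyzM-Cre Egr2 fl/fl replicate 2, lost without each of the other 24 h libraries (-2.01 to -1.31), and had adjusted p = 0.076 with median-ratio scaling. The test of whether the response itself differed gave an interaction of -1.92 (SE 0.77, limma adjusted p = 0.292).

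The same site had the largest CEBPb signal of the 5. CEBPb was 11.1 and 18.8 in basal Egr2 fl/fl cells and 107 and 41.4 at 24 h, against 5.09 and 8.25 and then 12.9 and 6.43 in LyzM-Cre Egr2 fl/fl cells. The genotypes differed at 24 h by a log2 change of -2.74 (SE 0.85, limma adjusted p = 0.0302). Over all rows CEBPb had 386 calls lower and 0 higher in that comparison, and 0 calls with median-ratio scaling, where the site changed by -1.69 (adjusted p = 0.181). The call was lost without any single 24 h library (-3.41 to -2.06). With IL-4 in Egr2 fl/fl cells CEBPb changed by 2.13 (adjusted p = 0.143), and the interaction was -1.70 (SE 1.21, adjusted p = 0.941). H3K4me2 there was 16.2 and 15.7, then 32.2 and 28.2, in Egr2 fl/fl cells, and 9.87 and 7.88, then 7.94 and 12.3, in LyzM-Cre Egr2 fl/fl cells. It was lower by genotype at 24 h (log2 change -1.51, SE 0.43, limma adjusted p = 0.00864), a call kept without the LyzM-Cre Egr2 fl/fl replicate 2 and lost without each of the other 24 h libraries (-1.61 to -1.23), with adjusted p = 0.0506 by median-ratio scaling. Pol II, with 1 library a group and no test, was 3.34 and 21.3 in Egr2 fl/fl cells and 1.3 and 1.33 in LyzM-Cre Egr2 fl/fl cells. STAT6 was 2.06 and 0, then 9.96 and 5.31, in Egr2 fl/fl cells, and 2.23 and 0, then 2.06 and 1.13, in LyzM-Cre Egr2 fl/fl cells.

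At +58.6 kb H3K27ac was 28.97 and 44.1 in basal Egr2 fl/fl cells and 90.5 and 109 at 24 h, and 30.1 and 34.8, then 45.7 and 57.5, in LyzM-Cre Egr2 fl/fl cells. IL-4 raised it in Egr2 fl/fl cells by 1.44 (SE 0.28, limma adjusted p = 0.00113), a call kept in each of 10 alternatives (0.93 to 1.74). The genotypes differed at 24 h by -0.94 (SE 0.28, adjusted p = 0.0226), which was kept without the LyzM-Cre Egr2 fl/fl replicate 2, lost without each of the other 24 h libraries (-1.07 to -0.78), and was -0.405 (adjusted p = 0.299) with median-ratio scaling. At +17.4 kb H3K27ac was 35.8 and 48.2, then 57.3 and 94.4, in Egr2 fl/fl cells, and 20.1 and 49.3, then 15.6 and 36.6, in LyzM-Cre Egr2 fl/fl cells. The genotypes differed at 24 h by -1.58 (SE 0.43, adjusted p = 0.0141), which was lost without the Egr2 fl/fl replicate 2 (-1.22) or the LyzM-Cre Egr2 fl/fl replicate 1 (-0.99), and was -1.05 (adjusted p = 0.0891) with median-ratio scaling.

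At +149.7 kb the mark was higher at 24 h in both genotypes. It was 34.9 and 34.6, then 65.3 and 64.9, in Egr2 fl/fl cells (log2 change 0.89, SE 0.28, limma adjusted p = 0.0269), and 22.1 and 17.9, then 42.6 and 33.7, in LyzM-Cre Egr2 fl/fl cells (0.90, SE 0.28, adjusted p = 0.0345). The first call was lost without any single library (0.88 to 0.89). The other was kept without the 24 h replicate 2 and lost without each of the others (0.73 to 1.04). With median-ratio scaling the changes were 0.39 and 0.73, neither called. PU1 stood highest of the 5 members here, at 47.6 and 57.4, then 69.4 and 74.2, in Egr2 fl/fl cells, and 42.4 and 45.5, then 47.9 and 62.1, in LyzM-Cre Egr2 fl/fl cells. STAT6 was 15.5 and 4.79, then 22.4 and 23.02, in Egr2 fl/fl cells, and 7.80 and 2.75, then 29.9 and 11.3, in LyzM-Cre Egr2 fl/fl cells. PPARg was 9.12 and 4.05, then 16.4 and 39.4, in Egr2 fl/fl cells, and 15.97 and 0, then 20.85 and 38.8, in LyzM-Cre Egr2 fl/fl cells, so that the genotypes overlapped at 24 h (log2 difference 0.15, SE 1.403).

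At +179.5 kb PU1 rose with IL-4 in Egr2 fl/fl cells, from 4.25 and 5.22 to 28.3 and 27.2 (log2 change 2.33, SE 0.41, limma adjusted p = 0.00325). It was 7.71 and 5.69, then 17.8 and 10.6, in LyzM-Cre Egr2 fl/fl cells (log2 change 0.95, SE 0.41, limma adjusted p = 0.279). The genotypes differed at 24 h by -0.96 (adjusted p = 0.160), and the interaction was -1.38 (SE 0.59, adjusted p = 0.490). Neither was called. The call with IL-4 in Egr2 fl/fl cells was lost without either 24 h library (2.30 and 2.36). H3K27ac rose from 3.41 and 3.39 to 22.1 and 10.3 in Egr2 fl/fl cells (log2 change 1.88, SE 0.62, limma adjusted p = 0.0322, lost without any single library at 1.36 to 2.39, and 0.122 with median-ratio scaling) and was 6.02 and 1.12, then 6.23 and 10.4, in LyzM-Cre Egr2 fl/fl cells. H3K4me2 was 12.6 and 18.2, then 35.4 and 31.02, in Egr2 fl/fl cells, and 4.93 and 5.25, then 14.4 and 13.1, in LyzM-Cre Egr2 fl/fl cells. It was lower in both LyzM-Cre Egr2 fl/fl libraries than in both Egr2 fl/fl libraries in either condition, with log2 differences of -1.41 in basal conditions and -1.21 at 24 h that did not pass the threshold (limma adjusted p = 0.237 and 0.053). CEBPb was 3.63 and 15.4 at 24 h in Egr2 fl/fl cells, or 6 and 19 reads, and 0 in both LyzM-Cre Egr2 fl/fl libraries. Against a floor of 3 reads over that group this is at least 7.65-fold lower, and at least 2.91-fold with the lower Egr2 fl/fl library alone. limma called it (adjusted p = 0.0208), and the call was lost without any single 24 h library and with median-ratio scaling (adjusted p = 0.191).

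**Figure D5:**
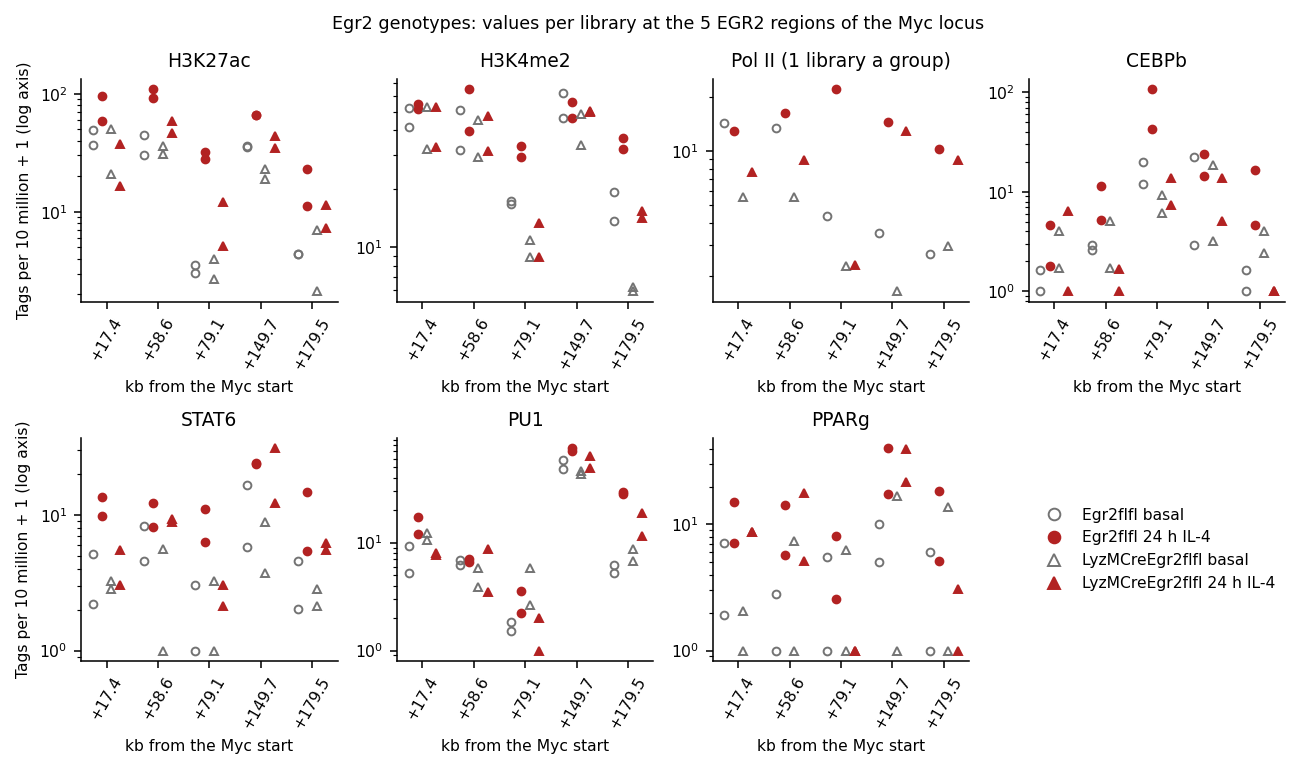
Normalized tags plus 1 (log axis) per library at the 5 regions listed for the Egr2 genotypes, for H3K27ac, H3K4me2, Pol II (1 library a group), CEBPb, STAT6, PU1 and PPARg. Circles are Egr2 fl/fl and triangles LyzM-Cre Egr2 fl/fl, open in basal cells and filled at 24 h of IL-4. At +79.1 kb the filled circles stand above all other symbols for H3K27ac, H3K4me2, Pol II and CEBPb.

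The counts of the 5 members by target were as follows. For H3K27ac limma called 3 lower by genotype at 24 h (24.7% of all rows called), 4 higher with IL-4 in Egr2 fl/fl cells (28.1%), 1 higher with IL-4 in LyzM-Cre Egr2 fl/fl cells (18.5%) and 0 in the interaction (0%). For H3K4me2 it called 1 lower by genotype (9.09%) and 0 in the other comparisons (8.21%, 1.15% and 0.0428% in the same order). For CEBPb it called 2 lower by genotype (8.25%) and 0 in the others (2.1%, 0% and 0%). For PU1 it called 1 higher with IL-4 in Egr2 fl/fl cells (8.23%) and 0 by genotype (9.45%), with IL-4 in LyzM-Cre Egr2 fl/fl cells (2.91%) and in the interaction (0%). For STAT6 it called 0 by genotype (0.0214%), with IL-4 in Egr2 fl/fl cells (11.8%), in LyzM-Cre Egr2 fl/fl cells (1.2%) and in the interaction (0%), and for PPARg 0 in all 4, where 0% of all rows were called in each.

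Among the counts of 0, an unadjusted p under 0.05 was reached by 1 member for H3K27ac in the interaction, by 2, 1 and 0 for H3K4me2 and by 2, 0 and 1 for CEBPb in the order above. Of all rows, 13.1% reached it for H3K27ac, 19%, 7.89% and 6.46% for H3K4me2, and 18.2%, 4.25% and 6.71% for CEBPb. It was reached by 1, 2 and 3 members for PU1 (24.6%, 15.3% and 9.28% of all rows), by 0, 2, 2 and 0 for STAT6 (15%, 30.2%, 10.6% and 8.19%) and by 0 for PPARg in all 4 (14.3%, 20.4%, 4.06% and 12.9%). edgeR called 1 for CEBPb with IL-4 in Egr2 fl/fl cells, and otherwise edgeR and DESeq2 called 0, leaving out 1 STAT6 comparison in which DESeq2 gave no adjusted p. The replicate numbers paired the libraries of H3K27ac, H3K4me2, CEBPb and STAT6. With the replicate block the counts became 2 for H3K27ac with IL-4 in LyzM-Cre Egr2 fl/fl cells, 2 for H3K4me2 by genotype, 1 for CEBPb with IL-4 in Egr2 fl/fl cells, and 3 and 2 for STAT6 with IL-4 in Egr2 fl/fl and LyzM-Cre Egr2 fl/fl cells. It called 24.7%, 12%, 3.34%, 26.6% and 6.18% of all rows in these comparisons.

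Other genes of the MYC network were read at their promoter rows, from a list of 26 that held MYC partners and antagonists such as Max and Mxd1, the paralogs Mycn and Mycl, targets such as Ncl and Odc1, and regulators of MYC protein such as Fbxw7. Of the 26, 23 to 25 had a promoter row in each strain. limma called 0 of them at 24 h for any of the 4 targets in any strain, and edgeR and DESeq2 also called 0. With the replicate block limma called 11 genes for H3K27ac and 16 for H3K4me3 in C57, 18 for H3K4me3 in PWK, 13 for H3K4me2 in SPRET and 0 to 2 in the other cases, where the block called 38.0%, 17%, 17.2% and 30.5% of all rows in the 4 cases named. Same-number correlations of deviations from group means were positive for each histone mark in every strain (0.211 to 0.732). With 2 libraries a group a single case cannot decide the pairing, and the cases were not tested together. For H3K4me2, 21 genes in C57 and 14 in SPRET were lower at an unadjusted p under 0.05, and for H3K4me3 13 in C57 and 1 each in BALB, NOD and SPRET. Of all rows, 34% and 32.4% reached that p for H3K4me2 in C57 and SPRET, in either direction, and 19.5%, 6.31%, 5.41% and 6.17% for H3K4me3. Unadjusted p under 0.05 was reached for H3K27ac by 1 gene each in C57, PWK and SPRET and for Pol II by 1 each in NOD and SPRET, where 10.6% to 22% and 7.65% to 13% of all rows reached it. Their median log2 change of H3K27ac was -0.57, -0.31, -0.18, -0.18 and -0.14 in C57, BALB, NOD, PWK and SPRET, and that of Pol II was 0.11, 0.51, -0.03, -0.01 and -0.12.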

How the data were processed

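Of the 267 samples, 155 libraries of ChIP-seq (3 histone marks, Pol II and 5 factors) in mouse BMDMs were analysed through tag tables. Further libraries of the 5 factors entered only through the 54 peak lists. The authors aligned reads to each strain's own genome, according to the methods, shifted positions to mm10 with MMARGE and counted tags with HOMER, and the submitters' processing notes name Bowtie2, HOMER and mm10. STAT6, PPARg and EGR2 were crosslinked with disuccinimidyl glutarate and formaldehyde, and the others with formaldehyde alone. The deposited tag tables give HOMER signal, tags per row of 1000 bp (300 bp for factors) scaled by the authors to 10000000 tags per library. The deposited peak lists are those the authors found reproducible between replicates by the irreproducible discovery rate (IDR), 1 list a group, and their scores were not analysed beyond rank. Columns of the authors' own comparisons, where present, were not used, and 4 value columns that matched no single sample were not used.

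Rows and peaks with centres within 200 kb of the Myc start (GENCODE vM21) were taken, and sites of different tables were matched at 500 bp. The members and gene lists were chosen with earlier results of these data known. The regions described by values were the promoter rows, the 3 other rows with the highest mean H3K27ac in C57, up to 5 rows past the fold rule with the largest H3K27ac fold and no overlap of libraries, the 5 EGR2 rows with the highest mean and every row of the Egr2 genotype tables, and the sites with the most factors in C57. Others named (+13.6, +72.4 and +176.7 kb and the Pol II rows of BALB) were chosen after their values were seen.

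Samples were grouped by the labels. log2(normalized tags + 1) was fitted with limma 3.58.1 (R 4.3.3, eBayes with trend) over all rows of each table and target, without a block, and p-values were adjusted by Benjamini-Hochberg over all rows, with a threshold of 0.05. Fold changes are on that scale, which understates changes of low rows. Values were whole reads for 100.0% of 7268918 values, within 0.1 read, so that edgeR 4.0.16 (quasi-likelihood) and DESeq2 1.42.0 were run on recovered counts as alternatives. Others were a pseudocount of 5, a filter on low values, median-ratio scaling, a replicate block and leaving out each replicate. Library totals of 4691644 to 29050468 tags set the precision, and intervals and floors cover counting error only, since tags are not independent molecules. Replicates differed by more than counting noise in every pair checked (chi-square over degrees of freedom 1.25 to 14.8), and none was a copy of another.

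Replicate numbers were taken to pair libraries where every same-number correlation of deviations from group means was over 0.1. This held for Pol II in C57 (0.191 to 0.395), PWK (0.438 to 0.631) and SPRET (0.414 to 0.442) and, in the Egr2 genotypes, for H3K27ac (0.231 to 0.508), H3K4me2 (0.125 to 0.256), CEBPb (0.21 to 0.338) and STAT6 (0.156 to 0.356), with the replicate block then calling 4 members for Pol II in PWK and 8 in SPRET. The pairing comes from these values and not from the labels. Same-number correlations were also over 0.1 for the histone marks of every strain (H3K27ac 0.507 to 0.729, H3K4me2 0.211 to 0.47, H3K4me3 0.515 to 0.732). The same held for Pol II in BALB (0.39 to 0.464) and NOD (0.561). With 2 libraries in a group a single case cannot decide the pairing, and these cases were not counted as paired. All of them were positive, where numbers that pair nothing could give either sign. The main fits leave such a pairing out, so that their counts of called members depend on that choice. On data with known changes drawn from the C57 H3K27ac table (67742 rows), limma recovered 0% of 4-fold and 40% of 16-fold changes, and in the H3K27ac table of the Egr2 genotypes 94% and 100%. A single sequence is not reported here.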

Additional observations from a re-analysis of the deposited data

How the results depend on the processing

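Of the 67 changes given at single regions, 21 were called, and 2 of these held in every alternative run, H3K27ac with IL-4 in Egr2 fl/fl cells at +58.6 and +79.1 kb. The calls kept numbered 21 of 21 with a pseudocount of 5, 20 of 21 with the replicate block, 18 of 20 with the filter on low values, 11 of 21 with edgeR, 10 of 19 with DESeq2 and 9 of 21 with median-ratio scaling. edgeR, DESeq2 and median-ratio scaling rescale libraries on the rows at hand, which in the Egr2 genotypes are selected EGR2 peaks alone. There they take out a change that most rows share. Most groups held 2 libraries, and counts of called members are small, so that 1 region can move them past 1.5 times. The cause of the differences below was not tested. DESeq2 changed the counts of called members for H3K27ac in C57 to 2 and NOD to 1, H3K4me2 in C57 to 1, Pol II in BALB to 1 and SPRET to 6, time course H3K27ac at 6 h and 24 h to 4 each, and in the Egr2 genotypes H3K27ac by genotype to 0, with IL-4 in Egr2 fl/fl cells to 2 and in LyzM-Cre Egr2 fl/fl cells to 0, and H3K4me2 by genotype to 0. Of all rows it called 4.21%, 2.32%, 0.312%, 0.77%, 3.22%, 11.1% and 6.11% in the strain and time course cases, in that order. In the Egr2 genotypes it called 18.2%, 24%, 21.5% and 1.09% of all rows. edgeR gave 1 for H3K4me2 in C57 and BALB, 3 for H3K27ac at 24 h of the time course, 0 for CEBPb by genotype and 1 with IL-4 in Egr2 fl/fl cells, 1, 2 and 0 for the 3 H3K27ac comparisons and 0 for H3K4me2 by genotype. Of all rows it called 0.506%, 0.483%, 1.94%, 2.05%, 3.44%, 24.1%, 27.2%, 18.8% and 4.4%, in that order. Shares of all rows for median-ratio scaling, the filter and the pseudocount are not given in this section. Median-ratio scaling gave 1 for H3K4me2 in both C57 and BALB, 0 for H3K27ac in SPRET, 2 for H3K27ac at 24 h of the time course, 0 for CEBPb by genotype, 0, 2 and 0 for the 3 H3K27ac comparisons and 0 for H3K4me2. The filter on low values gave 0 for H3K4me2 in C57, 1 for H3K27ac at 6 h and 1 network gene for H3K4me3 in BALB. A pseudocount of 5 gave 1 for H3K27ac in PWK, 1 each for CEBPb, STAT6 and H3K4me2 with IL-4 in Egr2 fl/fl cells and 2 for H3K4me2 by genotype.

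With the replicate block the counts for H3K27ac were 7 in C57, 2 in BALB, 4 in NOD, 3 in PWK and 2 in SPRET, for H3K4me2 1 in C57, 1 in PWK and 7 in SPRET, for H3K4me3 2 in C57 and 1 in PWK, and for Pol II 6 in NOD, 4 in PWK and 8 in SPRET. In the time course they were 6, 6 and 5 for H3K27ac at 1, 6 and 24 h and 1 for Pol II at 1 h and at 6 h, where the numbers did not meet the pairing rule. In the Egr2 genotypes they were 1 for CEBPb, 3 and 2 for STAT6, 2 for H3K27ac in LyzM-Cre Egr2 fl/fl cells and 2 for H3K4me2, and the block moved no other count of members by over 1.5 times. Network genes called with it numbered 11 for H3K27ac and 16 for H3K4me3 in C57, 1 for H3K4me3 in BALB, 2 for H3K27ac and 1 for Pol II in NOD, 1 for H3K27ac and 18 for H3K4me3 in PWK, and 13 for H3K4me2 and 1 for Pol II in SPRET. The same-number correlations of the histone marks were positive in every strain, although 2 libraries a group cannot decide a single case.

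Leaving out each library gave 0 to 12 calls for H3K4me2 in C57 (12 without the 24 h replicate 1), 0 to 9 in BALB (9 without the 24 h replicate 1), 0 to 5 in NOD (5 without the basal replicate 1) and 0 to 3 in SPRET (3 without the basal replicate 1), 0 to 2 for H3K27ac in NOD (2 without the basal replicate 1), and 0 to 1 in PWK and SPRET for H3K27ac and for Pol II. In the time course it gave 0 to 3, 0 to 2 and 0 to 1 for H3K27ac at 1, 6 and 24 h, and 0 to 1 for EGR2 at 6 h. In the Egr2 genotypes it gave 0 for CEBPb by genotype without each library, 0 to 1 for PU1 with IL-4 in Egr2 fl/fl cells, 0 to 3, 2 and 0 to 1 for the 3 H3K27ac comparisons, and 0 to 1 for H3K4me2 by genotype. Network genes for H3K4me2 ranged from 0 to 23 in C57 and 0 to 14 in BALB (highest without the 24 h replicate 1), and from 0 to 9 in NOD and 0 to 8 in SPRET (highest without the basal replicate 1).

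Shares of all rows that met the altered fold rules are not given here, so that the counts below cannot be read as particular to the locus. A fold of 2 in place of 2.5 gave, for H3K27ac, Pol II and both, 5, 4 and 3 members in C57, 2 for H3K27ac in BALB, 6 for Pol II and 2 for both in NOD, 3 and 1 in PWK, 2, 6 and 2 in SPRET, and 5 higher at 6 h. A pseudocount of 5 gave 0 for Pol II and both (C57), 0, 5 and 0 (BALB), 1, 0 and 0 (NOD) and 1 for Pol II (SPRET). Median-ratio scaling gave 6, 3 and 2 in C57, 2 for H3K27ac in BALB, 4 for Pol II in SPRET, and 3 higher and 0 lower at 1 h. Without single libraries H3K27ac ranged from 1 to 6 in C57, 0 to 2 in BALB, 1 to 4 in NOD, 2 to 5 in PWK and 0 to 2 in SPRET, and Pol II from 0 to 4 in C57, 1 to 13 in NOD (13 without the basal replicate 1), 0 to 4 in PWK and 1 to 4 in SPRET. At 1 h it ranged from 1 to 2 higher and 1 to 6 lower (6 without the 1 h replicate 1, which leaves the replicate with the low share of tags in rows), and at 6 h from 3 to 8 higher (8 without the basal replicate 2) and 0 to 3 lower.

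The share of IL-4 peaks with a basal peak, with lists shortened to the shorter, was 54.5% for STAT6 in PWK (28% with full lists), 100% for EGR2 in C57 (18.8%) and in PWK (50%), 57.1% in SPRET (25%), 50% for PPARg in C57 (14.3%) and 83.3% for CEBPb in BALB (35.7%). The IL-4 list then held 40% of the peaks of both lists for EGR2 in C57 (84.2%), 58.3% in SPRET (80%) and 60% for PPARg in C57 (84%). Within 100 kb the share was 100% for STAT6 at 1 h (81.8%) and 6 h (83.3%) and for EGR2 in BALB (87.5%) and NOD (88.9%), and 86.4% for PU1 in NOD (70.3%). The matching shares over the whole lists were not counted.

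No called change reversed. Among uncalled changes, log2 Pol II at +58.5 kb in C57 was -0.061 with edgeR and -0.067 with DESeq2, and ranged from -0.176 to 0.485 without single libraries. Without single libraries promoter H3K27ac ranged from -0.423 to 0.935 in NOD, -0.227 to 0.836 in PWK, -0.078 to 0.793 in SPRET and -0.534 to 1.612 at 1 h, promoter Pol II in NOD from -0.090 to 1.375, and H3K27ac at +58.6 kb in SPRET from -0.073 to 0.678. In LyzM-Cre Egr2 fl/fl cells the change of H3K27ac at +17.4 kb with IL-4 ranged from -1.012 to 0.245.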
